A study of Homo sapiens with 6 samples.

Results

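The sites described here were those on small nucleolar RNAs (snoRNAs) and small Cajal body-specific RNAs (scaRNAs). A site was counted when its midpoint lay, on the same strand, in a gene that the GENCODE annotation of hg19 types as snoRNA or scaRNA. Of the 10639684 sites in the 6 libraries, 2211 met this rule. They comprised 473 sites in G20, 226 in G35, 301 in G45, 271 in HuR replicate 1, 403 in HuR replicate 2 and 537 in Total. By gene name, 958 lay in box C/D snoRNAs (SNORD), 839 in box H/ACA snoRNAs (SNORA), 217 in scaRNAs (SCARNA) and 197 in genes with other names, such as snoU13, U3 and U8. Every such gene carried the type snoRNA in the annotation used, so scaRNAs were recognised by name. No site was chosen by its reads.

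The libraries came from HEK293, an established human embryonic kidney line, with a doxycycline-inducible FLAG-tagged protein. In PAR-CLIP, cells take up the nucleoside 4-thiouridine (4SU), long-wave UV light crosslinks it to protein, RNase T1 cuts the RNA after guanosine, and a crosslink is read as a T-to-C conversion. G20, G35 and G45 were gel slices at about 20, 35 and 45 kDa from FLAG immunoprecipitates of cells expressing FLAG-GFP, a protein not known to bind RNA, and each was 1 library. HuR, an RNA-binding protein of AU-rich elements, was represented by 2 replicates, and Total was 1 library of RNA from labelled and irradiated cells, made without immunoprecipitation. Its lysate was treated with proteinase K and depleted of ribosomal RNA before RNase T1, whereas the immunoprecipitated samples were digested both before and after the immunoprecipitation. All 6 groups shared the 4SU and UV treatment and the cell line. The slices are different gel positions and not replicates of each other, and nothing in the labels says whether the HuR replicates were separate cultures. The sites held between 6187300 (G35) and 38644636 (G20) reads in all. The reads carried no molecular identifiers, so the 95% Wilson intervals and floors given here cover counting error only.

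Box C/D snoRNAs guide 2'-O-methylation of RNA with the C box near their 5' end and the D box near their 3' end, and are bound by fibrillarin and its partners. Box H/ACA snoRNAs guide pseudouridylation, fold into hairpins, end shortly after the letters ACA and are bound by dyskerin and its partners. ScaRNAs carry either or both of these designs and guide the modification of spliceosomal RNAs in Cajal bodies. Most human snoRNAs are trimmed from the introns of host genes, many of them genes for ribosomal proteins, while a few such as U3 and U8 have promoters of their own and act in the cleavage of ribosomal RNA precursors.

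The sequences of the sites with the most reads of their class in a library show what was recovered, written 5' to 3' on the RNA's strand in the DNA letters of hg19. Capitals mark every match to TGATGA, the core of the C box, and to CTGA, the D box, and matches that overlap run together.
SNORD43 in G20, chr22:39715032-39715138, minus strand: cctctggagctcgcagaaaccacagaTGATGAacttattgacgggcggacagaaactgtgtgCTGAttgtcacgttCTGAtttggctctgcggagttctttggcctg
SNORD43 in G35, chr22:39715057-39715122, minus strand: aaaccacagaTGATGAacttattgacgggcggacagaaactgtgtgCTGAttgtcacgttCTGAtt
SNORD43 in G45, chr22:39715057-39715118, minus strand: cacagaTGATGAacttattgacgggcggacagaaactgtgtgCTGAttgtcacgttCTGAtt
SNORD60 in HuR replicate 1, chr16:2205074-2205107, minus strand: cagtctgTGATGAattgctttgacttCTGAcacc
SNORD3B-1 in HuR replicate 2, chr17:18965566-18965611, plus strand: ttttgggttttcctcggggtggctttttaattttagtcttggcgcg
SNORD68 in Total, chr16:89627796-89627909, plus strand: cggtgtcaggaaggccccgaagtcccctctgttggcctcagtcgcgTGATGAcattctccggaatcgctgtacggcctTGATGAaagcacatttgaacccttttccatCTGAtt
SNORA45 in G20, chr11:8706986-8707062, plus strand: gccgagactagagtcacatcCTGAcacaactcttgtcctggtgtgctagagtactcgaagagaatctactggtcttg
SNORA72 in HuR replicate 2, chr1:205700415-205700451, minus strand: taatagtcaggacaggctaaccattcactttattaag
SNORA81 in Total, chr3:186504454-186504641, plus strand: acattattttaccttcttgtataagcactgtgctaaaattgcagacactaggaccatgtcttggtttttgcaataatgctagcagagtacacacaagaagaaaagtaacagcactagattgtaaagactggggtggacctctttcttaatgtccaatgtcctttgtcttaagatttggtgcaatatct
SCARNA12 in G20, chr12:7076713-7076769, minus strand: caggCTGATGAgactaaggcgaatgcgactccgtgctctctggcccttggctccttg
SCARNA17 in HuR replicate 1, chr18:47340613-47340649, plus strand: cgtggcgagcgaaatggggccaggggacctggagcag
SCARNA14 in Total, chr15:66639579-66639639, minus strand: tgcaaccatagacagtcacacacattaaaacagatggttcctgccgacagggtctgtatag

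The SNORD43 site in G20 had 5204 reads over 107 nt and reached past both ends of the 64-nt gene. In G35 and G45 the site of the same gene covered 66 and 62 nt, nearly the gene alone, with 161 and 212 reads. The SNORD60 site held 27 reads and the SNORD3B-1 site 822 reads. The SNORD68 site of Total, with 4878 reads, began 46 nt before the annotated 5' end and held the letters TGATGA at 2 places. The H/ACA sites shown had 597 reads at SNORA45, 48 at SNORA72 and 3335 at SNORA81, and the scaRNA sites had 312 at SCARNA12, 26 at SCARNA17 and 1520 at SCARNA14. SNORA81 was covered from end to end in Total, whereas the other H/ACA and scaRNA sites shown were pieces of their genes.

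snoRNA and scaRNA genes took a larger share of the reads in each FLAG-GFP slice than in either HuR replicate. The share of library reads was 0.161% (interval 0.160 to 0.162) in G20, 0.0481% (0.0464 to 0.0499) in G35 and 0.0457% (0.0442 to 0.0472) in G45. It was 0.00630% in HuR replicate 1 (0.005815 to 0.00682), 0.0168% in HuR replicate 2 (0.0164 to 0.0173) and 0.209% in Total (0.207 to 0.210). The HuR mean was 0.0116% ± 0.00745 (SD, n = 2). The lowest slice was 2.71-fold above the higher HuR replicate, and the HuR replicates themselves differed 2.67-fold. Since the 10 highest sites took 76.5% of G20 reads and 61.9% of Total reads, the shares were also computed without each library's 10 highest sites in the denominator. They then came to 0.685%, 0.0599% and 0.0579% in the slices (G20, G35 and G45, the order kept below), 0.548% in Total and 0.0119% ± 0.00757 in HuR (SD, n = 2). Total had the largest share of all reads, but G20 had the largest share in this second count, and HuR was lowest in both. With 3 slices of 1 library each, no test of the shares between slices and HuR was made.

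Box C/D snoRNAs supplied most of these reads in every library. In RPM, the reads scaled by each library total, they stood at 1352, 381 and 337 in the slices, 33.1 and 124 in HuR replicates 1 and 2, and 1415 in Total. H/ACA snoRNAs stood at 200, 65.8 and 94.0 RPM in the slices, at 13.2 and 26.8 in the HuR replicates and at 563 in Total. ScaRNAs had 41.7, 23.4 and 18.7 RPM in the slices, 6.51 and 7.72 in HuR and 106 in Total. In each of these classes both HuR replicates lay below all slices, and Total lay above all slices. Without the 10 highest sites in the denominators, a choice made after seeing the data for these classes, Total lay below G20 for C/D genes (3716 compared to 5746 RPM) and stayed above all slices for H/ACA genes and scaRNAs. Genes of other names had 18.3, 10.7 and 7.29 RPM in the slices, 10.2 and 10.3 in HuR and 4.01 in Total, so HuR lay within the slice range. Of the 708 reads of this class in G20, 583 fell on loci named U8. Without those loci the slices stood at 3.23, 2.91 and 3.58 RPM, below HuR at 9.66 and 9.90.

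**Figure D1:**
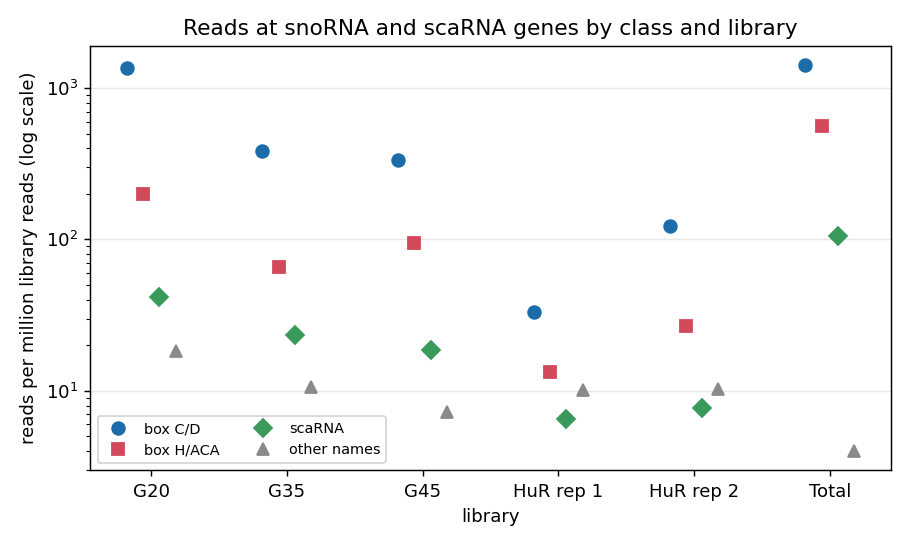
RPM (log scale) at box C/D, box H/ACA, scaRNA and other-named genes in each of the 6 libraries, 1 point per class and library. Box C/D genes are highest throughout, from 33.1 in HuR replicate 1 to 1415 in Total.

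Per kilobase of annotated gene, box C/D genes exceeded H/ACA genes in 6 of 6 libraries. The C/D and H/ACA densities were 1554 and 146 reads per kb for G20, 70.1 and 7.68 for G35, and 75.5 and 13.4 for G45. They were 9.37 and 2.38 in HuR replicate 1, 118 and 16.2 in HuR replicate 2, and 1513 and 382 in Total. The mean log2 ratio over libraries was 2.65 ± 0.61 (SD, n = 6). An exact two-sided sign-flip permutation test gave p = 0.03125, the smallest that 6 libraries allow, and 0.0703 after Benjamini-Hochberg adjustment over the 9 comparisons tested this way. No comparison among the 9 had an adjusted p under 0.05.

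Read density was also set against the flanks of each gene, the 500 nt on either side on the same strand outside other snoRNA genes. This ratio needs no scaling between libraries, but it falls with more reads in the flanks as well as with fewer in the gene. For box C/D genes the density in the gene was 59.0-fold, 28.1-fold and 27.7-fold that of the flanks in the slices, compared to 2.57-fold and 3.53-fold in HuR replicates 1 and 2 and 17.9-fold in Total. For H/ACA genes it was 47.2-fold, 9.10-fold and 20.8-fold in the slices, 1.08-fold and 0.762-fold in HuR and 19.5-fold in Total. Pooled over all H/ACA genes, HuR reads were about as dense beside the genes as in them. The H/ACA flanks held 8472 reads in HuR replicate 2 and 1231 in G20, although the G20 library was the larger (38644636 compared to 32111810 reads). The H/ACA genes themselves held 860 reads in HuR replicate 2 and 7744 in G20, so genes and flanks both moved the ratio. Of the H/ACA genes with HuR reads, 49 of 56 in replicate 1 and 44 of 84 in replicate 2 were denser than their own flanks. For scaRNAs the ratio of gene to flank density was 13.2-fold, 24.5-fold and 58.1-fold in the slices, 4.70-fold and 2.004-fold in HuR and 17.2-fold in Total. In these 3 classes the HuR replicates lay below every other library. For genes of other names the ratios were 5.66, 0.493 and 0.229 in the slices, 0.0883 and 0.498 in HuR and 0.847 in Total, so HuR replicate 2 lay above G35 and G45. Flanks of neighbouring genes can overlap, and all 1458 annotated genes entered the ratio, with reads or without.

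**Figure D2:**
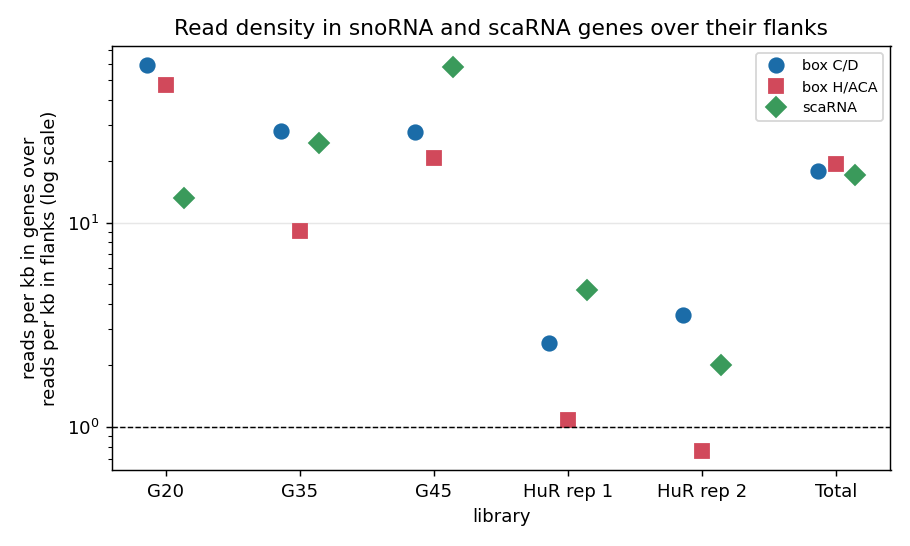
Reads per kb inside box C/D, box H/ACA and scaRNA genes over reads per kb in their 500-nt flanks (log scale) for each library, with a dashed line where both are equal. The points of the HuR replicates lie between 0.762 and 4.70, and those of the other libraries between 9.10 and 59.0.

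Reads on the opposite strand of the same genes were counted for comparison. Sense reads outnumbered antisense reads 241-fold in G20, 14.0-fold in G35, 6.39-fold in G45, 1.11-fold in HuR replicate 1, 4.74-fold in HuR replicate 2 and 249-fold in Total. A single site held 361 of the 541 antisense reads of HuR replicate 1, and a single site held 471 of the 539 in G45. The highest antisense site held 204 of 259 reads in G20 and 153 of 212 in G35, but 137 of 1141 in HuR replicate 2 and 33 of 301 in Total. The ratios of the slices and of HuR replicate 1, and the order of the libraries, thus depend on single antisense sites.

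Of the 1458 annotated genes, 442 had a read in any library and 101 had reads in all 6. The latter comprised 70 box C/D, 22 H/ACA and 8 scaRNA genes and 1 gene of another name. Another 155 genes were seen in 1 library, 53 of them in Total, 41 in HuR replicate 2, 35 in HuR replicate 1, 19 in G20, 7 in G45 and 0 in G35. Names annotated at a single locus were detected more often, with 168 of 308 genes (54.5%) compared to 274 of 1150 genes (23.8%) whose name recurs, among them 464 loci named snoU13. Only uniquely mapping reads were kept, so near-identical copies are uncertain. HuR and the slices both detected 223 genes, which were 67.6% of the 330 HuR genes and 79.1% of the 282 slice genes. Another 107 genes had HuR reads and no slice read, but only 13 of these had reads in both replicates.

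Among those 13, the SNORA72 copy at chr1:205700349-205700480 had the most reads, 3 and 53 in HuR replicates 1 and 2 and 7 in Total. At SNORA72, a floor of 3 reads corresponds to 0.0776, 0.485 and 0.398 RPM in the slices. Across genes with reads in both libraries of a pair, Pearson's r of log2 reads was 0.71 between G20 and G45 (192 genes), 0.60 between G20 and G35 (169 genes), 0.56 between G35 and G45 (154 genes) and 0.43 between the HuR replicates (149 genes). Between slices and HuR it was 0.41, 0.53 and 0.40 for HuR replicate 2 (204, 155 and 172 genes) and 0.07, 0.28 and 0.29 for replicate 1 (151, 118 and 130 genes). Genes are not independent replicates, and the points share gene length and base composition.

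The annotation places 543 of the 1458 genes in an intron and 182 in an exon of a protein-coding or lncRNA host on the same strand, counting an exon of any transcript model, and 733 outside such hosts. Genes outside hosts were detected least, with 13.5% having any read, compared to 40.9% of intronic and 66.5% of exonic genes. They held 7.68%, 4.87% and 6.19% of the snoRNA and scaRNA reads of G20, G35 and G45, 13.8% and 20.1% of those in HuR and 2.51% of those in Total. RPL3, which encodes a ribosomal protein, was the host with the most reads summed over the 6 libraries, 10991, 360 and 414 in the slices, 6 and 261 in HuR and 2082 in Total over 3 snoRNAs. RPL17, RACK1, RPL13A and RPL13, all encoding proteins of the ribosome, followed in the sum. RACK1 (4931 reads) led in Total, and RPL17 exceeded RPL3 in both HuR replicates, with 23 and 326 reads.

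SNORD43, one of the RPL3-hosted snoRNAs (chr22:39715055-39715118), ranked first in all slices. It had 5204, 161 and 212 reads in the slices, 2 and 126 in HuR replicates 1 and 2, and 1601 in Total, which correspond to 135, 26.02, 28.1, 0.210, 3.92 and 44.6 RPM. Both HuR values lay below all slices. Its neighbour SNORD83B (chr22:39709824-39709916) had 3766, 115 and 144 reads in the slices, 0 and 88 in HuR and 159 in Total, so that G20 stood at 97.5 RPM and Total at 4.43. HuR replicate 1 had no read there, which at 3 reads allows up to 0.315 RPM. SNORD58C in RPL17 (chr18:47015615-47015678) had 3737, 60 and 136 reads in the slices, 14 and 226 in HuR and 1556 in Total. For SNORD58C the values in RPM, 96.7, 9.70 and 18.0 in the slices, lay above 1.47 and 7.04 in HuR. SNORD104 (chr17:62223443-62223512), among the leaders of G35, had 604, 93 and 44 reads in the slices, 3 and 65 in HuR and 492 in Total.

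Total was led by other snoRNAs. SNORD68 in RPL13 (chr16:89627842-89627925) had 4878 reads in Total, 959, 52 and 35 in G20, G35 and G45, and 6 and 25 in HuR. SNORA81 in EIF4A2 (chr3:186504464-186504641) had 3335 reads in Total, 107, 7 and 10 in the slices and 2 and 1 in HuR. SNORD24 in RPL7A (chr9:136216251-136216325) had 3095 reads in Total, 100, 21 and 8 in the slices and 3 and 6 in HuR. All of these stood higher in Total than in any slice, also in RPM, with SNORA81 at 92.8 RPM in Total and 2.77 in G20.

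The HuR libraries had yet other leaders. SNORD3B-1, a gene named for the U3 RNA of ribosomal RNA processing (chr17:18965225-18965982), had 822 reads in HuR replicate 2 and 20 in replicate 1, but 9, 21 and 10 in the slices and 4 in Total. In every library these reads formed 1 site at the same place, about 341 nt from the start of a 758-nt gene model in HuR replicate 2 and without a C or D box match. Loci named U3 with reads are at most 218 nt long, so the site lies farther from the start than those loci reach. Whether its reads come from U3 RNA was not tested. At 25.6 RPM HuR replicate 2 lay above all other libraries, while replicate 1 at 2.10 lay within the slice range of 0.233 to 3.39. SNORD97 in EIF4G2 (chr11:10823014-10823155) had 247 reads in HuR replicate 2, 9 in replicate 1, 574, 43 and 40 in the slices and 24 in Total, and its 7.69 RPM in HuR replicate 2 fell within the slice range of 5.31 to 14.9. Its conversion events per 100 reads were 92.3 in HuR replicate 2, compared to 6.45, 9.30 and 27.5 in the slices.

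In HuR replicate 1 the gene with the most reads was SCARNA17 (chr18:47340503-47340646), with 32 reads compared to 5 in replicate 2, 2, 13 and 12 in the slices and 5 in Total. Sites of 244 reads in G20 and 346 in Total overlapped SCARNA17 with their midpoint outside it and were not counted. SNORD60 in SNHG19 (chr16:2205024-2205106) had 27 and 31 reads in the HuR replicates, 180, 36 and 38 in the slices and 496 in Total. Its 2.83 and 0.965 RPM in HuR lay below the slice range of 4.66 to 5.82.

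**Figure D3:**
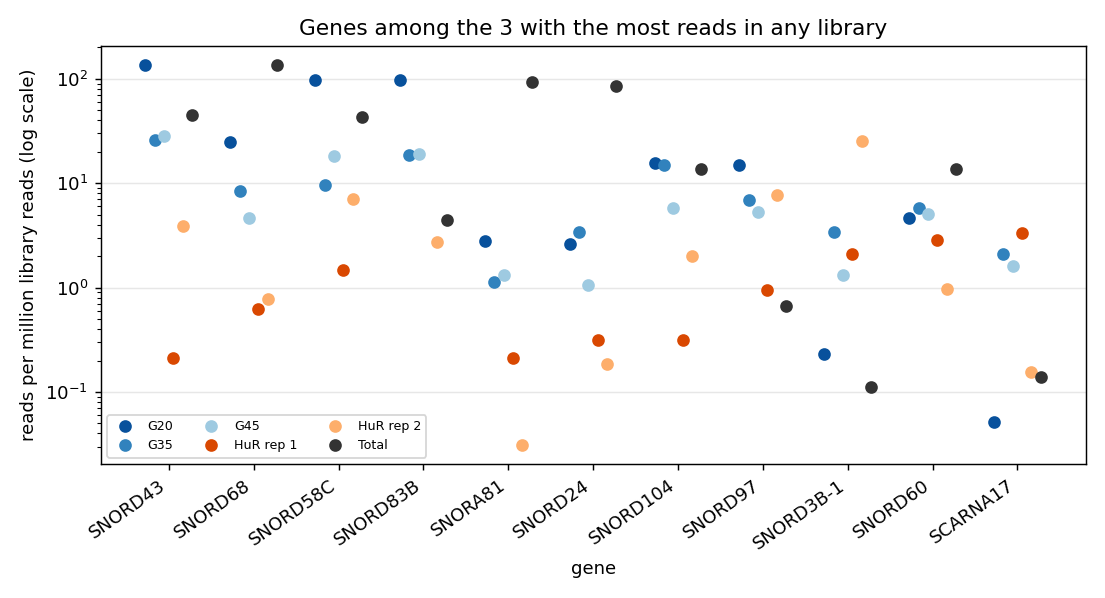
RPM (log scale) of the 11 genes that ranked among the first 3 in any library, 1 point per library, with libraries at 0 not drawn. SNORD43 reaches 135 in G20 and SNORD68, SNORA81 and SNORD24 peak in Total, while SNORD3B-1 peaks in HuR replicate 2 at 25.6.

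Differences per gene were tested by summing the reads of the sites in each gene over the whole table and fitting HuR (n = 2) against the slices (n = 3) in edgeR. The fit takes the spread between the slices, which are different gel positions, as that between replicates. Of 19357 genes that passed the filter on low counts, 4.35% were called lower and 0.775% higher in HuR at an adjusted p under 0.05 (edgeR quasi-likelihood test, Benjamini-Hochberg), with a median log2 change of -0.02 over all genes. Of the 442 snoRNA and scaRNA genes with reads, 130 passed the filter, and 121 of these were called lower and 0 higher. The called genes had log2 changes from -9.59 to -3.77 with a median of -6.44, and the median of all 130 was -6.35. By class, 84 of 91 box C/D, 29 of 30 H/ACA and 7 of 8 scaRNA genes were called lower. An unadjusted p under 0.05 was given for 128 of the 130 by edgeR, and DESeq2 called 163 of 197 lower and 0 higher. Most called genes passed the filter through their slice reads, as their median in HuR replicate 1 was 1 read. The direction of the calls was thus in part set by the filter. Another 312 genes with reads did not enter, so the counts describe the genes tested and not the whole class. Without the filter, edgeR called 151 of 389 genes lower and 0 higher, with an unadjusted p under 0.05 for 210. The counts from DESeq2, from unadjusted p and without the filter have no share over all genes beside them. They therefore do not show what is particular to these genes.

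The count rested on single libraries and on the scaling. It was 0 of 90 without G20, 0 of 164 without HuR replicate 2 and 0 of 111 with the reads of sites holding 5 or more reads, where edgeR gave an unadjusted p under 0.05 for 86, 146 and 105 genes. G20 had a TMM factor of 0.18 and the HuR replicates of 2.31 and 2.17. With library totals in place of TMM, an alternative chosen after seeing the data, 3 of 130 were called lower and the median change was -3.53, while the median of all genes moved to 1.65 and the calls over all genes became 197 higher and 13 lower, compared to 150 and 842 with TMM. Relative to the median of all genes the snoRNA and scaRNA median stayed negative under either scaling. A change of scaling shifts all genes by nearly the same amount, so this outcome was close to fixed and is no check on the calls. The log2 change of all 83 called genes still tested was negative without G20, and that of all 121 without HuR replicate 2. These genes had been chosen for a negative change in a fit that held the same remaining libraries. Their sign was therefore close to fixed as well and is no check on the calls. In TMM-scaled counts, both HuR replicates lay below all slices for all but 16 of the 130 genes, and above all slices for 0. The filter passed genes through their slice reads, and the TMM factors raised G20 and lowered HuR, so both favoured this order. The count of genes with HuR below all slices was not made over all genes, and the unadjusted counts above also stand without shares over all genes. None of them shows what is particular to snoRNA and scaRNA genes.

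The largest changes among called genes were those of SNORA66, SNORA75, SNORD3A, SNORD67 and SNORD88C. SNORA66 (chr1:93306276-93306408), in an RPL5 intron, had 373, 0 and 25 reads in G20, G35 and G45 and 0 and 2 in HuR. Its log2 change was -9.59 ± 1.87 (SE), with an edgeR adjusted p of 0.00698, but the G35 value of 0 overlaps HuR. SNORA75 (chr2:232320511-232320647), in nucleolin (NCL), had 264, 18 and 21 reads in the slices and 1 and 0 in HuR, a change of -9.57 ± 1.66 (adjusted p = 0.00593 in edgeR). SNORD67 (chr11:46783939-46784049) had 186, 4 and 25 reads in the slices and 0 and 1 in HuR, and changed by -9.42 ± 1.68. SNORD88C (chr19:51305585-51305675) had 1977, 37 and 45 reads in the slices and 1 and 17 in HuR, and changed by -9.24 ± 1.63. SNORD3A, another U3 gene (chr17:19091329-19092027), had 71, 4 and 8 reads in the slices and 0 in both HuR replicates, so its fitted change depends on the prior count. Against the floor of 3 reads over both HuR libraries, its mean slice RPM of 1.18 was at least 16.4-fold higher. The slices did not overlap HuR at SNORA75, SNORD3A, SNORD67 or SNORD88C.

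Of the 9 tested genes that were not called, 8 had negative log2 changes, from -4.09 at SNORD100 to -0.84 at SCARNA17. The remaining gene was SNORD3B-1, with a change of 1.28 ± 1.00 (SE) and an edgeR adjusted p of 0.437. The uncalled SNORD58B had 0 reads in G20 because its 178-nt site of 310 reads there had its midpoint outside the gene. Sites of this kind came to 1.19% of the snoRNA and scaRNA reads of G20 and to 16.6% in HuR replicate 2.

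**Figure D4:**
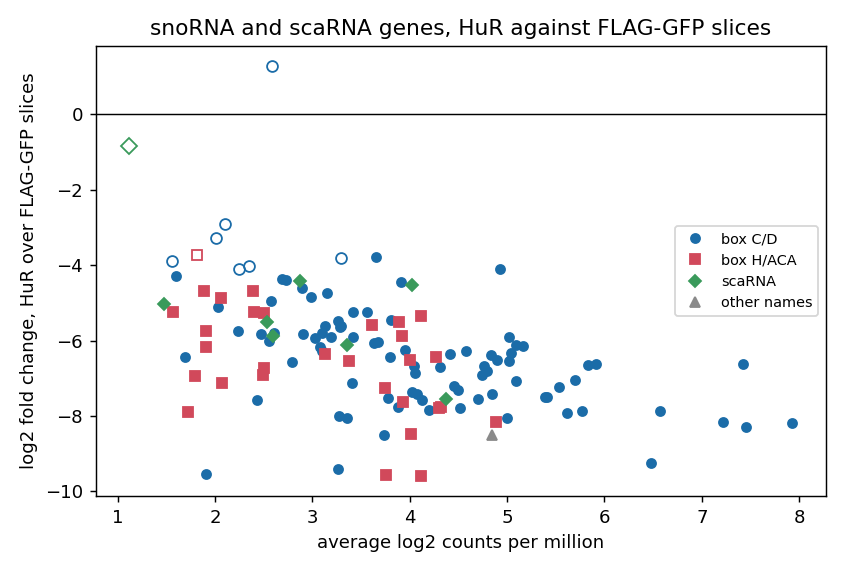
Log2 fold change of HuR over the FLAG-GFP slices against average log2 CPM (scaled counts) for the 130 genes tested in edgeR, with filled symbols for an adjusted p under 0.05. All but SNORD3B-1 at 1.28 lie below 0.

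Within the pre-rRNA processing snoRNAs, a list of 102 annotated genes with the names U3, SNORD3, SNORD13, SNORD14, SNORD22, SNORD118 and SNORA73, 43 had reads and 6 had reads in all libraries. The list leaves out 26 loci named U8 and not SNORD118, 4 of them with reads, which are counted among the genes of other names. SNORD118, the U8 RNA (chr17:8076772-8076905), had 1205, 88 and 57 reads in the slices, 15 and 37 in HuR and 1137 in Total. SNORD13 had 737, 12 and 30 reads in the slices, 1 and 33 in HuR and 1444 in Total, and SNORA73B had 366, 3 and 22 in the slices, 4 and 49 in HuR and 488 in Total. Summed over the list, HuR replicate 2 stood at 36.96 RPM and replicate 1 at 7.03, compared to 94.9, 32.2 and 27.9 in the slices. With the U8 loci added, a choice made after seeing the data, HuR replicate 2 at 37.3 lay between G35 at 39.9 and G45 at 31.6, so its order against G35 turned. SNORD3B-1 supplied 822 of the 1187 reads of the list in HuR replicate 2. Whether that site, about 341 nt into its gene model, belongs to U3 RNA was not tested. SNORD14A, singled out after its values were seen, had 67.8, 120 and 88.0 conversion events per 100 reads in the slices, compared to 6.77 in G20 for its paralogue SNORD14C.

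ScaRNAs had reads at 26 of 49 genes, led by SCARNA14, SCARNA7 and SCARNA12. SCARNA14 (chr15:66639545-66639680) was read mostly in Total, with 1524 reads compared to 17, 0 and 2 in the slices and 1 and 11 in HuR. SCARNA7 (chr3:160232695-160233024) had 319, 31 and 6 reads in the slices, 3 and 99 in HuR and 557 in Total. SCARNA12 (chr12:7076500-7076769) had 441, 11 and 22 in the slices, 2 and 9 in HuR and 120 in Total.

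The imprinted orphan families, whose members have no known ribosomal RNA target, were almost unread. Of 45 SNORD113 and SNORD114 genes, 1 had reads (SNORD114-20, 2 reads in G45), and of 74 SNORD115 and SNORD116 genes, 2 had reads (SNORD115-40 and SNORD115-10, 3 reads in all, in HuR). The names of snoRNAs hosted by GAS5 and SNHG1 could not be followed in this annotation, which lists SNORD78 alone inside GAS5 and 0 snoRNAs inside SNHG1, and places the other 22 and 8 genes of those names elsewhere. SNORD78 (chr1:173834760-173834824) had 30, 21 and 0 reads in the slices, 3 and 11 in HuR and 6 in Total. Outside it, sites in GAS5 held 5572, 310 and 294 reads in the slices, 68 and 618 in HuR and 1096 in Total, and sites in SNHG1 held 3500, 286, 201, 82, 693 and 5141 reads in the same order. These reads are not part of the counts above. snoRNAs that the annotation omits elsewhere would be missed in the same way.

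G20, the slice with the most reads, was compared with Total gene by gene over 154 genes with at least 100 reads in both together. The median ratio of G20 RPM to Total RPM was 1.27 for 94 box C/D genes, 0.189 for 47 H/ACA genes and 0.475 for 12 scaRNA genes. Without the 10 highest sites in the denominators, every ratio is multiplied by 1.62 and the medians become 2.06, 0.305 and 0.769, so the order of the classes holds under both scalings while the level does not. Ratios of single genes ran from 0.00465 at SNORA19 (2 and 400 reads) to 29.1 at SNORA1 (125 and 4 reads), apart from SNORD58B, so the spread within H/ACA genes spanned that of all genes. Each library was sequenced once, so these ratios have no replicate check.

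Conversion events per 100 reads were lower at snoRNA and scaRNA sites than at all other sites in 5 of 6 libraries. The values at snoRNA and scaRNA sites and elsewhere were 6.76 and 18.7 for G20, 36.4 and 61.7 for G35, and 17.7 and 56.3 for G45. They were 57.5 and 48.6 in HuR replicate 1, 68.4 and 87.3 in HuR replicate 2, and 4.67 and 36.99 in Total. HuR replicate 1 was the exception. All these values pool events over reads, so sites with many reads weigh most. The 10 highest sites took 76.5% of G20 reads and 61.9% of Total reads, so the values elsewhere in these 2 libraries largely describe a few sites. The mean difference was -19.7 ± 16.9 (SD, n = 6), with p = 0.0625 in the exact sign-flip permutation test and 0.1125 after adjustment. The HuR mean at snoRNA and scaRNA sites was 62.9 ± 7.69 (SD, n = 2), above every slice and Total. Thymidine made up 28.02% of the bases of snoRNA and scaRNA sites and 22.6% of other sites in G20, but 29.9% and 37.99% in HuR replicate 2, and its part in the differences was not tested.

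**Figure D5:**
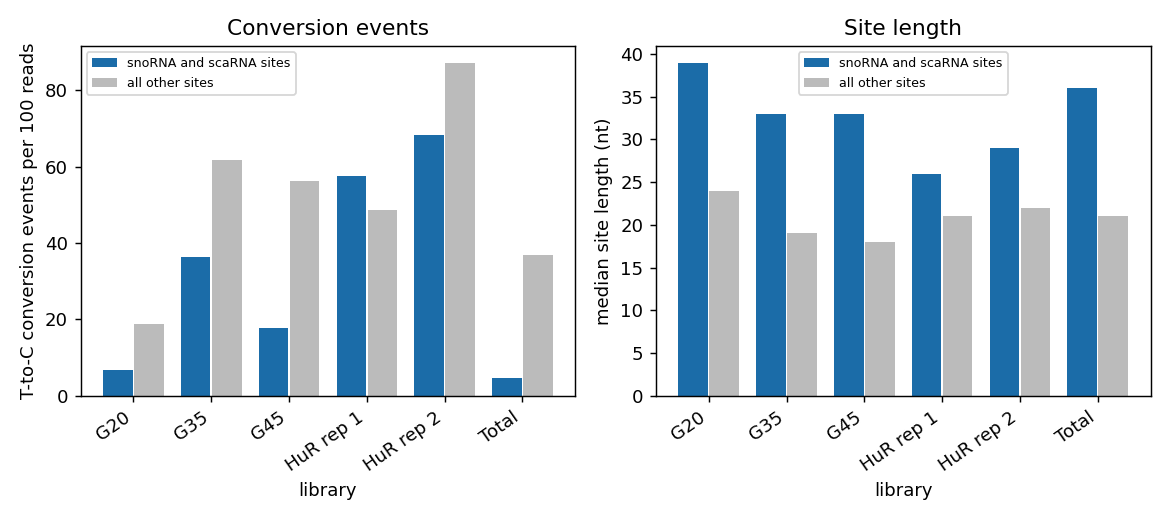
Left, T-to-C conversion events per 100 reads; right, median site length in nt, for snoRNA and scaRNA sites and for all other sites, 1 pair of bars per library. Conversions are lower at snoRNA and scaRNA sites in 5 libraries, HuR replicate 1 excepted, and their median length is greater in all 6.

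Box C/D and H/ACA sites did not differ in conversion beyond the spread between libraries. The C/D and H/ACA values were 6.56 and 7.94 for G20, 39.1 and 15.7 for G35, 14.5 and 29.2 for G45, 54.9 and 62.7 in HuR replicate 1, 64.2 and 72.8 in HuR replicate 2, and 4.55 and 4.95 in Total. C/D sites were lower in 5 of 6 libraries and higher in G35, and the mean difference of -1.59 ± 13.3 (SD, n = 6) had p = 0.75 (exact sign-flip permutation test). ScaRNA sites had 6.02, 41.4 and 14.2 events per 100 reads in the slices, 46.8 and 88.7 in HuR and 4.27 in Total, and C/D sites differed from them by -2.93 ± 11.1 (SD, n = 6; p = 0.75, exact sign-flip permutation test).

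Sites on snoRNAs and scaRNAs were longer than other sites in 6 of 6 libraries. Their median length was 39 nt compared to 24 nt elsewhere for G20, 33 compared to 19 for G35, and 33 compared to 18 for G45. It was 26 compared to 21 in HuR replicate 1, 29 compared to 22 in HuR replicate 2, and 36 compared to 21 in Total. The mean difference was 11.8 ± 4.58 nt (SD, n = 6), with p = 0.03125 in the exact sign-flip permutation test and 0.0703 after adjustment. When sites were weighted by their reads the mean difference turned to -1.33 nt, with 84 compared to 150 nt in G20, although the difference was positive in 4 of 6 libraries. Sites grow where reads overlap, and 57.9% of the snoRNA and scaRNA sites of HuR replicate 1 held 1 read, compared to 11.8% in G20. Among sites with exactly 1 read, an alternative chosen after seeing the data, the mean difference was 4.25 nt and 5 of 6 libraries were positive.

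Among groups, box C/D sites had the greatest median length of the named classes in every library. Their median length was 52.5, 36 and 35 nt in the slices, 29.5 and 34 nt in the HuR replicates and 46 nt in Total. H/ACA sites had medians of 34, 32 and 30 nt in the slices, 25 and 28 nt in HuR and 34 nt in Total. C/D sites exceeded H/ACA sites by 8.33 ± 5.78 nt and scaRNA sites by 6.58 ± 4.598 nt (SD, n = 6, positive in 6 of 6 libraries each, p = 0.03125 in the exact sign-flip permutation test and 0.0703 adjusted, for both). In the clusters tables the difference between C/D and H/ACA sites fell to 0.9 ± 3.75 nt and was positive in 2 of 5 libraries (p = 0.625, exact sign-flip permutation test), with clusters shorter in C/D than in H/ACA genes in G35, G45 and Total. The median C/D site covered 55.0%, 41.3% and 39.5% of its gene in the slices, 32.8% and 38.6% in HuR and 52.6% in Total, while H/ACA sites covered between 17.9% (HuR replicate 1) and 25.9% (Total). In G20, 22.5% of C/D sites reached more than 10 nt past an end of the gene, compared to 6.02% and 3.23% in the other slices and 17.4% in Total.

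The ends of sites were compared with the annotated ends of the genes, without computing the share expected under an even spread. A site ended within 3 nt of the annotated 3' end for 31.3%, 46.6% and 43.2% of C/D sites in the slices, 28.7% and 29.1% in HuR and 27.2% in Total. For H/ACA sites the shares were 29.2%, 47.8% and 38.3% in the slices, 23.4% and 20.2% in HuR and 20.6% in Total. RNase T1 leaves a G at the cut, and C/D sites that ended at the 3' end of the gene had G as the last base in 57.9% of cases in G20 and 37.1% in G35, compared to 81.6% and 70.4% of C/D sites ending elsewhere. Over all snoRNA and scaRNA sites the last base was G in 73.2%, 54.9% and 54.5% in the slices, 72.7% and 77.9% in HuR and 81.8% in Total, and the difference from other sites, -4.63 ± 10.5 percentage points, did not pass the test (p = 0.344, exact sign-flip permutation test). The read-weighted midpoint along the gene, from 0 at the 5' end to 1 at the 3' end, differed between C/D and H/ACA sites by -0.0255 ± 0.0525 (SD, n = 6; p = 0.344, exact sign-flip permutation test).

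The boxes of the C/D and H/ACA classes were found in most, but not all, of their genes with reads. Of the 145 C/D genes with reads, 60.0% held TGATGA in their first 20 nt and 90.3% held CTGA in their last 20 nt, compared to 58.6% and 80.2% of all 389 annotated C/D genes. ACA lay in the last 10 nt of 86.8% of the 151 H/ACA genes with reads and of 73.1% of the 398 annotated. On the RNA strand of the sites, CTGA occurred in 84.6%, 73.7% and 71.0% of C/D sites in the slices, 63.1% and 63.7% in HuR and 74.5% in Total. Among non-snoRNA sites of the same lengths the shares were 27.01%, 14.3%, 13.3%, 8.04%, 9.77% and 20.4%. TGATGA occurred in 44.5%, 27.8% and 32.3% of C/D sites in the slices, 15.6% and 25.3% in HuR and 38.6% in Total, compared to at most 2.41% of other sites of the same lengths. H/ACA sites held CTGA in 17.1%, 13.4% and 15.9% of cases in the slices, 9.09% and 15.5% in HuR and 16.0% in Total. Other sites of the same lengths as the H/ACA sites held it in 17.6%, 10.9%, 10.8%, 6.85%, 6.87% and 16.1%, so the H/ACA shares were above these in G35, G45 and HuR and below them in G20 and Total.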

How the data were processed

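Sites of 6 PAR-CLIP libraries were analysed. The authors trimmed adapters, mapped 50-bp single reads to hg19 with bowtie and kept reads of a single genomic location, allowing at most 2 T-to-C mismatches, in PARalyzer. The deposited values are whole-number counts of reads and conversion events per site, not normalized. Groups, sites with any read, were used, and the clusters tables as an alternative. Site sequences matched GRCh37. The gene annotation was the GRCh37 version of GENCODE release 44.

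Classes were compared within libraries with exact sign-flip tests over the 6 libraries, adjusted over 9 tests. Gene sums were tested with edgeR 4.0.16 (R 4.3.3, filterByExpr, TMM, SE from the F statistic), and DESeq2 1.42.0 as an alternative. RPM, intervals and flanks were computed with Python 3.11.15, pandas 2.3.3 and scipy 1.17.1. The tests were tried on simulated data. For edgeR these had a fixed spread for all genes and not that between gel positions, so they do not check the fit under the conditions of these data.

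The site rule, lists and named genes were chosen with earlier results of these data known. Named genes are the first 3 per library by reads, the 5 largest called changes, and list members with the most reads.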

Additional observations from a re-analysis of the deposited data

Results flagged for a closer look

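At the ends of sites, the snoRNA and scaRNA sites of G35 had a G as the last base more often than other sites, by 5.63 percentage points, and those of G45 by 8.45, whereas in both HuR replicates G was less frequent at snoRNA and scaRNA sites than elsewhere. In conversion, box C/D sites exceeded H/ACA sites in G35 by 23.4 events per 100 reads, whereas in both HuR replicates they were lower. Both contrasts were noted because every library of HuR moved one way and the slice the other. The differences between slices and HuR were not tested, since each slice is 1 library.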

How the results depend on the processing

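Of 155 repeats of the results under other settings, 136 kept their direction and side of the threshold, a count within 1.5 times or a HuR mean within its SD, 8 reversed and 11 moved. Many of the 136 were fixed in advance. No sign-flip comparison passed the threshold at first, and with 5 libraries the exact sign-flip permutation test gives no p under 0.0625. Leaving out a HuR replicate cannot move a mean of 2 by its SD. The 136 is thus no measure of how firm the results are. The conversion difference between C/D and H/ACA sites turned positive with sites of 5 or more reads (0.814), with names annotated at 1 locus (2.13) and, by leaving out single libraries, ranged from -6.58 to 1.04. The C/D against scaRNA difference ranged from -5.14 to 1.39. With names at 1 locus the midpoint difference between C/D and H/ACA sites was 0.00436, and weighted by sites 0.00699. Under the other weighting of sites the length difference was -1.33 nt and the last-base difference 12.9 points. The cause of these reversals was not tested.

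Called snoRNA and scaRNA genes numbered 121 in edgeR, 0 with sites of 5 or more reads, 3 with library totals, and 0 to 145 with each library left out. Called genes over the whole table numbered 992, 2667 with DESeq2, 590 with its size factors, 0 with sites of 5 or more reads, 210 with library totals, and 0 to 1257 with each library left out. Where these were 0, edgeR gave an unadjusted p under 0.05 for 1641 genes with sites of 5 or more reads and 4953 without G20. The median log2 change of all genes was -0.22 in DESeq2 and 0.50 without a filter. DESeq2 called 163 snoRNA and scaRNA genes. No paired analysis was possible because only HuR has more than 1 replicate number. Low HuR read counts, a median of 1 per called gene in replicate 1, limit the single genes.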
